A study of Mus musculus with 32 samples.

Results

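The expression of 10 genes was followed through every condition of the series. These were the immediate early genes *Egr1*, *Fos*, *Fosl1*, *Jun*, *Junb*, *Ier2* and *Ier3*, and the MYC family genes *Myc*, *Mycn* and *Mycl*. They were chosen by name, with earlier results of these data known, and are 10 of the 51826 genes in the count table. All 10 passed the filter on low counts, which left 19037 genes for testing. The samples are mouse embryonic stem cells (ESCs) carrying the RGd2 reporter, a destabilized GFP expressed from the *Rex1* locus, and mutants made in them with CRISPR-Cas9. RNA-seq covered 32 libraries in 11 conditions, with 3 libraries each except 2 for *Etv5*-KO N16h.

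In 4 conditions the cells were in 2i, the MEK inhibitor PD0325901 together with the GSK3 inhibitor CHIR99021 (CH) in N2B27 medium without LIF. These were RGd2 after 5 passages (2i-p5), and RGd2, *Rbpj*-KO and *Etv5*-KO cells that had been kept in CH with LIF and moved to 2i shortly before the assay. RGd2, *Rbpj*-KO and *Etv5*-KO cells were also taken 16 h after withdrawal of both inhibitors (N16h), and RGd2 cells after 72 h (N72h). RGd2 cells in CH alone were taken at passage 2 (CH-p2). The last 2 conditions were mutants that were passaged without MEK inhibitor: *Etv5*/*Rbpj* double knockouts in CH for 5 passages (ER-dKO CH-p5), and *Etv5*/*Tcf3*/*Rbpj* triple knockouts in N2B27 alone for 5 passages (ETR-tKO N-p5). All lines share the RGd2 background. The libraries of each knockout condition come from different clonal lines. The lines of ETR-tKO replicates 14 and 15, (Tc1)ERc2 and (Tc1)ERc10, share a prefix in their labels, and how related they are is not stated. Each RGd2 condition has 2 libraries of the parental line and 1 of a derived clone. So p-values measure the spread between these lines and replicates.

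Immediate early genes are transcribed without new protein synthesis when a signal reaches the cell. For several of them the route is the ERK cascade, in which RAF activates MEK, MEK activates ERK, and ERK phosphorylates ternary complex factors such as ELK1. EGR1 is a zinc finger factor, FOS and FOSL1 pair with JUN or JUNB to form the AP-1 dimer, and IER2 and IER3 are short-lived early response proteins. The MYC proteins bind DNA as dimers with MAX and drive growth genes. In ESCs the MEK inhibitor holds back FGF-driven ERK signaling, which otherwise promotes exit from naive pluripotency.

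Libraries held 5986857 to 71439411 counts on genes, the shallowest being RGd2 2i replicate 33. Counts were scaled by ERCC spike-ins, control RNAs added to the samples, and are given below as normalized counts. The amount added, per cell or per RNA mass, is not stated, so normalized counts are levels relative to the spike-ins. FPKM is used where levels of different genes are set side by side. A gene was called when edgeR (quasi-likelihood, Benjamini-Hochberg over all tested genes) gave it an adjusted p under 0.05 and mean FPKM reached 1 in either group. The summed FPKM of 7 pluripotency genes was 1165 to 1469 in the 2i libraries and 419 to 436 at N72h. The targeted genes *Etv5* and *Rbpj* kept counts in their knockouts. Mean *Etv5* FPKM was 21.6 in *Etv5*-KO 2i against 134.9 in RGd2 2i. *Rbpj* went against the label in 1 library. The 3 libraries labelled ER-dKO CH-p5, replicates 10, 11 and 12, gave 1138, 1307 and 3489 *Rbpj* normalized counts, beside 2830 to 3385 in 2i-p5 and 3814 to 4338 in CH-p2. Replicate 12 was thus above every 2i-p5 library, while its *Etv5* count of 1684 was below all of them. Counts over the whole gene include exons outside a deletion and cannot tell whether *Rbpj* was deleted there, and ER-dKO results are also given without it. A bulk library cannot tell fewer expressing cells from less RNA per cell, and this holds for every value below.

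*Egr1* was close to undetected in all conditions with MEK inhibitor and rose in the 4 conditions kept without it for longer than 16 h. In RGd2 2i-p5 the 3 libraries held 1, 1 and 0 *Egr1* counts, or 2.36, 1.31 and 0 normalized counts. In RGd2 2i they held 2, 5 and 0 counts, or 1.79, 3.82 and 0 normalized counts. The 0 in the shallow RGd2 2i replicate 33 allows up to 12.1 normalized counts, from counting error alone. *Rbpj*-KO 2i gave 8.42, 9.85 and 3.36 normalized counts and *Etv5*-KO 2i gave 2.79, 5.91 and 0. All 12 libraries with MEK inhibitor gave estimates under 10 normalized counts, with that limit for replicate 33.

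After 16 h without inhibitors *Egr1* was still low in 2 of the 3 genotypes. RGd2 N16h gave 10.4, 13.6 and 7.16 normalized counts and *Rbpj*-KO N16h gave 10.9, 6.83 and 19.5. *Etv5*-KO N16h gave 72.5 and 50.7, above every library of the other genotypes at that time. Long-term culture without MEK inhibitor gave higher values. They were 208, 165 and 168 in RGd2 CH-p2, 215, 270 and 198 in RGd2 N72h, 107, 102 and 124 in ER-dKO CH-p5, and 676, 446 and 507 in ETR-tKO N-p5. The ETR-tKO libraries lay above all others, and the 4 conditions kept without MEK inhibitor did not overlap any condition with it.

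Because 2i-p5 held 2 *Egr1* counts in all, ratios against it carry wide counting intervals. The ratio was 191 for CH-p2 (95% exact interval 52.5 to 1587), 234 for N72h (64.6 to 1939), 117 for ER-dKO (32.2 to 967) and 609 for ETR-tKO (168 to 5034). These intervals cover counting error only. Adjusted p from edgeR was 1.37e-14, 4.19e-16, 1.03e-12 and 2.82e-18 in the same order. The ER-dKO value is not among the calls because mean *Egr1* FPKM there was 0.905. Between the conditions that share a medium, *Egr1* in ETR-tKO was higher than in RGd2 N72h by 1.27 ± 0.23 (log2, SE; adjusted p = 1.79e-05).

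**Figure D1:**
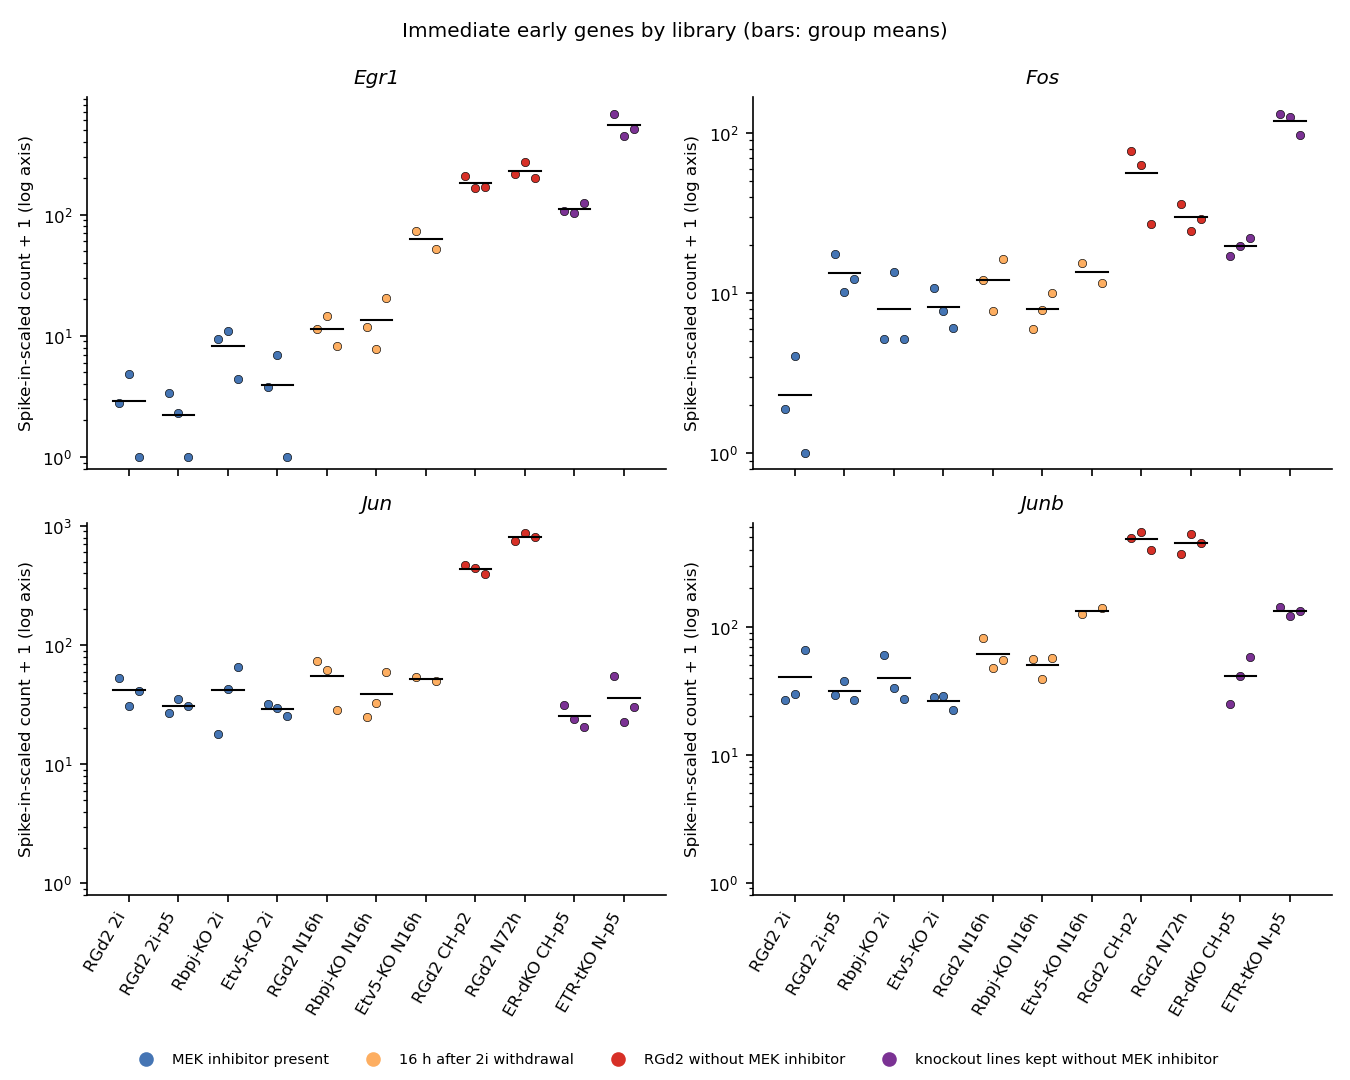
*Egr1*, *Fos*, *Jun* and *Junb* in each of the 32 libraries, as spike-in-scaled count plus 1 on a log axis, with 1 point per library and a bar at each group mean. *Egr1* rises from under 10 in the blue 2i libraries to 102 or more in the 4 conditions at the right, whereas *Jun* is high in the 2 red RGd2 conditions and at most 54.0 in the 2 purple mutant conditions.

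*Fos*, located at chr12:85473890-85477273 (mm10), was highest in ETR-tKO. RGd2 2i gave 0.896, 3.06 and 0 normalized counts, and RGd2 2i-p5 gave 16.5, 9.20 and 11.3. So the 2 RGd2 cultures in 2i did not overlap, although replicate 33 of RGd2 2i again has too few reads to separate 0 from up to 12.1. At N16h RGd2 gave 11.1, 6.79 and 15.3, overlapping 2i-p5. The knockouts in 2i gave 4.21, 12.5 and 4.20 (*Rbpj*-KO) and 9.75, 6.75 and 5.05 (*Etv5*-KO), the latter 1.90 ± 0.67 above RGd2 2i (adjusted p = 0.0311, FPKM below 1). The highest values were in ETR-tKO N-p5, at 131, 125 and 96.3, followed by RGd2 CH-p2 at 76.6, 62.6 and 26.2.

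*Fos* in ETR-tKO N-p5 was 3.30 ± 0.41 above 2i-p5 on the log2 scale (adjusted p = 1.75e-08) and 2.01 ± 0.35 above RGd2 N72h (adjusted p = 6.87e-06). In CH-p2 the difference from 2i-p5 was 2.21 ± 0.43 (adjusted p = 6.14e-05), with mean FPKM at 0.924 and so below the level needed for a call. Without CH-p2 replicate 6, the lowest *Fos* library of that condition, the difference was 2.54 and *Fos* was called. ER-dKO CH-p5 gave 16.1, 18.7 and 21.1 normalized counts, which is 0.65 ± 0.44 above 2i-p5 (adjusted p = 0.265).

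*Fosl1*, which encodes the FOS-related protein FRA1, never reached 1 FPKM and had at most 57 counts in any library. Its highest normalized counts were 40.4 in CH-p2 and 34.6 in ETR-tKO. Over all libraries of a condition, CH-p2 held 46 counts and 2i-p5 held 5, a ratio of 11 (95% exact interval 4.39 to 35.5). The same ratio was 9.68 for ETR-tKO (3.99 to 30.6), 5.85 for N72h (2.33 to 18.9) and 1.36 for ER-dKO (0.481 to 4.71). The ER-dKO interval includes 1.

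*Jun*, located at chr4:95049034-95052222 (mm10), was high in RGd2 N72h and CH-p2 and in no other condition. RGd2 N72h gave 740, 871 and 815 normalized counts and RGd2 CH-p2 gave 468, 446 and 398. ER-dKO CH-p5, in the same medium as CH-p2, gave 30.2, 23.2 and 19.4. ETR-tKO N-p5, in the same medium as N72h, gave 54.0, 21.5 and 29.5. The other 7 conditions ranged from 16.8 to 73.2. Thus the mutants passaged without MEK inhibitor overlapped the 2i range for *Jun*, while their *Egr1* did not.

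The tests gave the same order. *Jun* was 3.84 ± 0.32 above 2i-p5 in CH-p2 (adjusted p = 7.95e-13) and 4.73 ± 0.32 above it in N72h (adjusted p = 5.86e-16), both log2. Against 2i-p5 it differed by -0.32 ± 0.37 in ER-dKO (adjusted p = 0.536) and by 0.26 ± 0.36 in ETR-tKO (adjusted p = 0.603). The direct contrasts were -4.16 ± 0.30 for ER-dKO against CH-p2 (adjusted p = 7.05e-15) and -4.47 ± 0.29 for ETR-tKO against N72h (adjusted p = 2.84e-16).

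*Junb* and *Ier3* resembled *Jun* in the RGd2 conditions but were also raised in ETR-tKO. *Junb* gave 498, 552 and 402 normalized counts in CH-p2, 372, 529 and 456 in N72h, and 141, 120 and 133 in ETR-tKO. In ER-dKO it gave 24.1, 40.4 and 56.7, beside 28.3, 36.8 and 25.7 in 2i-p5. The log2 difference from 2i-p5 was 4.0 ± 0.29 in CH-p2, 3.90 ± 0.28 in N72h and 2.12 ± 0.29 in ETR-tKO, with adjusted p of 9.87e-15, 5.68e-15 and 1.49e-07. In ER-dKO it was 0.40 ± 0.31 (adjusted p = 0.339). ETR-tKO stayed below N72h for *Junb*, by a log2 difference of -1.78 ± 0.23 (adjusted p = 2.04e-08).

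For *Ier3* the values were 157, 85.1 and 114 in CH-p2, 111, 175 and 176 in N72h, 68.0, 70.9 and 65.3 in ETR-tKO and 40.9, 43.4 and 34.8 in ER-dKO. RGd2 2i-p5 gave 9.43, 26.3 and 31.9. All 4 conditions were therefore above 2i-p5 in every library, but the ER-dKO difference of 0.71 ± 0.34 did not pass (adjusted p = 0.103). The other 3 were 2.25 ± 0.33, 2.65 ± 0.32 and 1.47 ± 0.33, with adjusted p of 5.79e-07, 5.24e-09 and 0.000442.

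*Ier2* was the most abundant of the early genes, with 18.7 to 40.0 FPKM over the 32 libraries, whereas *Fos* did not exceed 2.21 FPKM in any. Mean *Ier2* FPKM was 27.6 in 2i-p5, 33.2 in CH-p2, 30.7 in N72h, 25.2 in ER-dKO and 23.1 in ETR-tKO. Of these 4 contrasts 1 passed, CH-p2 against 2i-p5 at 0.39 ± 0.11 (adjusted p = 0.00615), and it did not pass under TMM scaling (0.21, adjusted p = 0.108) or against RGd2 2i (0.08, 0.611). In ETR-tKO *Ier2* was at -0.04 ± 0.11 and passed in the lower direction under TMM (-0.28, adjusted p = 0.0292) and against RGd2 2i (-0.35, 0.013).

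Promoter sequences were at hand for 6 of the 10 genes, *Fos*, *Jun*, *Junb*, *Ier3*, *Mycn* and *Mycl*, from RefSeq on GRCm38.p6. The 250 bases before the transcription start are shown for *Fos*, *Jun* and *Junb*, the AP-1 genes among these 6, because *Fos* and *Junb* rose in ETR-tKO and *Jun* did not pass. Capitals mark matches to 3 motifs. One is TGACG, the core of the cAMP response element, to which CREB and ATF proteins bind. Another is TGACNTCA, a form of the full element, which holds the first motif where its N is G. The last is the TATA box, at which the general transcription machinery assembles, searched as TATAAA.
Fos, chr12:85473640-85473889, plus strand: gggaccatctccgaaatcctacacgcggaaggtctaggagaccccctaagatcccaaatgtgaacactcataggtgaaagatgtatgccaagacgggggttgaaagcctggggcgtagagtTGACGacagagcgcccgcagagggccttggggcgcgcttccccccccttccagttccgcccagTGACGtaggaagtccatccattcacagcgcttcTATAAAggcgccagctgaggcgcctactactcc
Jun, chr4:95052223-95052472, minus strand: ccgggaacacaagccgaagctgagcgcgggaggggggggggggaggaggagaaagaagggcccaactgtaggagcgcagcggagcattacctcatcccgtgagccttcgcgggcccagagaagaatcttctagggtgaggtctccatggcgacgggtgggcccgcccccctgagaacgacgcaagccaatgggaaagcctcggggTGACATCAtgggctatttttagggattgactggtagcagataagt
Junb, chr8:84978749-84978998, minus strand: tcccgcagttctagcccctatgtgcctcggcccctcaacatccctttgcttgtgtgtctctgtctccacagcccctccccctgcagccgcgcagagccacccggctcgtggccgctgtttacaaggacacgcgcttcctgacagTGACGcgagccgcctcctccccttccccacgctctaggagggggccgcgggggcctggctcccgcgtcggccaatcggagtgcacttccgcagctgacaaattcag
Searching both strands of the same window in 32851 promoters, TGACG was found in 17.8% and in the windows of *Fos* (at -129 and -66 from the start) and *Junb* (at -106). TGACNTCA was found in 7.49% and in that of *Jun* (at -45), and TATAAA in 12.4% and in those of *Fos* (at -33) and *Mycl* (at -8). TGANTCA, the AP-1 site, was in 6.75% of promoters, the E-box CACGTG bound by MYC dimers in 6.02%, and the CArG box bound by SRF in 1.47%, and these 3 were in none of the 6 windows. These are matches of letters in a short window, not measured binding, and sites further upstream are missed. The 3 genes shown were picked with their values known, and no link between motif and expression was tested.

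In the MYC family, *Mycn* was the main family member in every condition, *Myc* was highest 16 h after withdrawal, and *Mycl* fell over the same 16 h. On mm10, *Myc* lies at chr15:61985391-61990374, *Mycn* at chr12:12936093-12941914 and *Mycl* at chr4:122995652-123002485. Per length, *Mycn* made up 73.5% ± 2.0 (SD, n = 3) of the summed FPKM of the 3 genes in CH-p2, the lowest share, and 92.9% ± 0.35 (n = 3) in ETR-tKO, the highest. The summed FPKM was 28.8 to 31.3 in CH-p2, 41.8 to 46.5 in 2i-p5 and 75.6 to 80.6 in ETR-tKO. The 3 ranges did not overlap.

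*Myc* at N16h reached 623, 553 and 624 normalized counts in RGd2, 409, 454 and 491 in *Rbpj*-KO, and 663 and 864 in *Etv5*-KO. All 8 of these libraries were above all 24 others, of which the highest was 269 in CH-p2. At N72h RGd2 cells gave 109, 142 and 140. RGd2 *Myc* was thus lower at 72 h than at 16 h by 2.20 on the log2 scale (SE 0.16, adjusted p = 3.35e-15). The labels do not say whether both times started from the same culture, and *Myc* differed between the 2 RGd2 cultures in 2i, as given next. How much of the difference lies in the starting culture was not tested.

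The level of *Myc* in 2i depended on the culture. RGd2 2i gave 205, 175 and 254 normalized counts and RGd2 2i-p5 gave 42.4, 65.7 and 58.6, a log2 difference of -1.84 ± 0.19 for 2i-p5 (adjusted p = 1.88e-09). *Rbpj*-KO 2i gave 160, 120 and 149, and *Etv5*-KO 2i gave 57.8, 44.8 and 50.5. The 2 RGd2 cultures differ in how long the cells had been in 2i and in the earlier medium, which cannot be told apart here. It follows that the direction of *Myc* in the passaged conditions hangs on the reference: against 2i-p5 it was 1.19 ± 0.19 higher at N72h, 0.51 ± 0.19 in ER-dKO and 0.89 ± 0.19 in ETR-tKO, and against RGd2 2i the log2 values were -0.65, -1.32 and -0.95. In CH-p2 it was 2.13 ± 0.19 above 2i-p5 (adjusted p = 2.25e-12) and 0.30 above RGd2 2i (adjusted p = 0.135).

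*Mycl* went from 817, 708 and 751 normalized counts in RGd2 2i to 240, 214 and 187 at N16h, and stood at 415, 459 and 416 at N72h. In *Rbpj*-KO it went from 1262, 1032 and 925 to 486, 465 and 421, and in *Etv5*-KO from 575, 533 and 575 to 241 and 323. The 2i and N16h libraries did not overlap in any genotype. *Mycl* in *Rbpj*-KO was above RGd2 at both times, by 0.49 ± 0.13 in 2i (adjusted p = 0.00913) and by 1.09 ± 0.14 at N16h (adjusted p = 6.73e-08).

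*Mycn* FPKM was 34.9, 34.6 and 44.5 in RGd2 2i, 39.6, 38.3 and 35.2 in 2i-p5, 44.5, 39.5 and 29.9 at N16h and 46.5, 49.1 and 46.3 at N72h. CH-p2 gave 21.6, 22.3 and 23.0, under every other library, and ETR-tKO N-p5 gave 75.0, 70.4 and 72.5, above every other library. On the spike-in scale the log2 difference of *Mycn* from 2i-p5 was -0.63 ± 0.13 in CH-p2 (adjusted p = 0.000109) and 1.18 ± 0.13 in ETR-tKO (adjusted p = 6.54e-10). ER-dKO, in the same medium as CH-p2, was 0.82 ± 0.13 above CH-p2 (adjusted p = 1.06e-06), and ETR-tKO was 0.80 ± 0.13 above N72h (adjusted p = 1.02e-06).

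**Figure D2:**
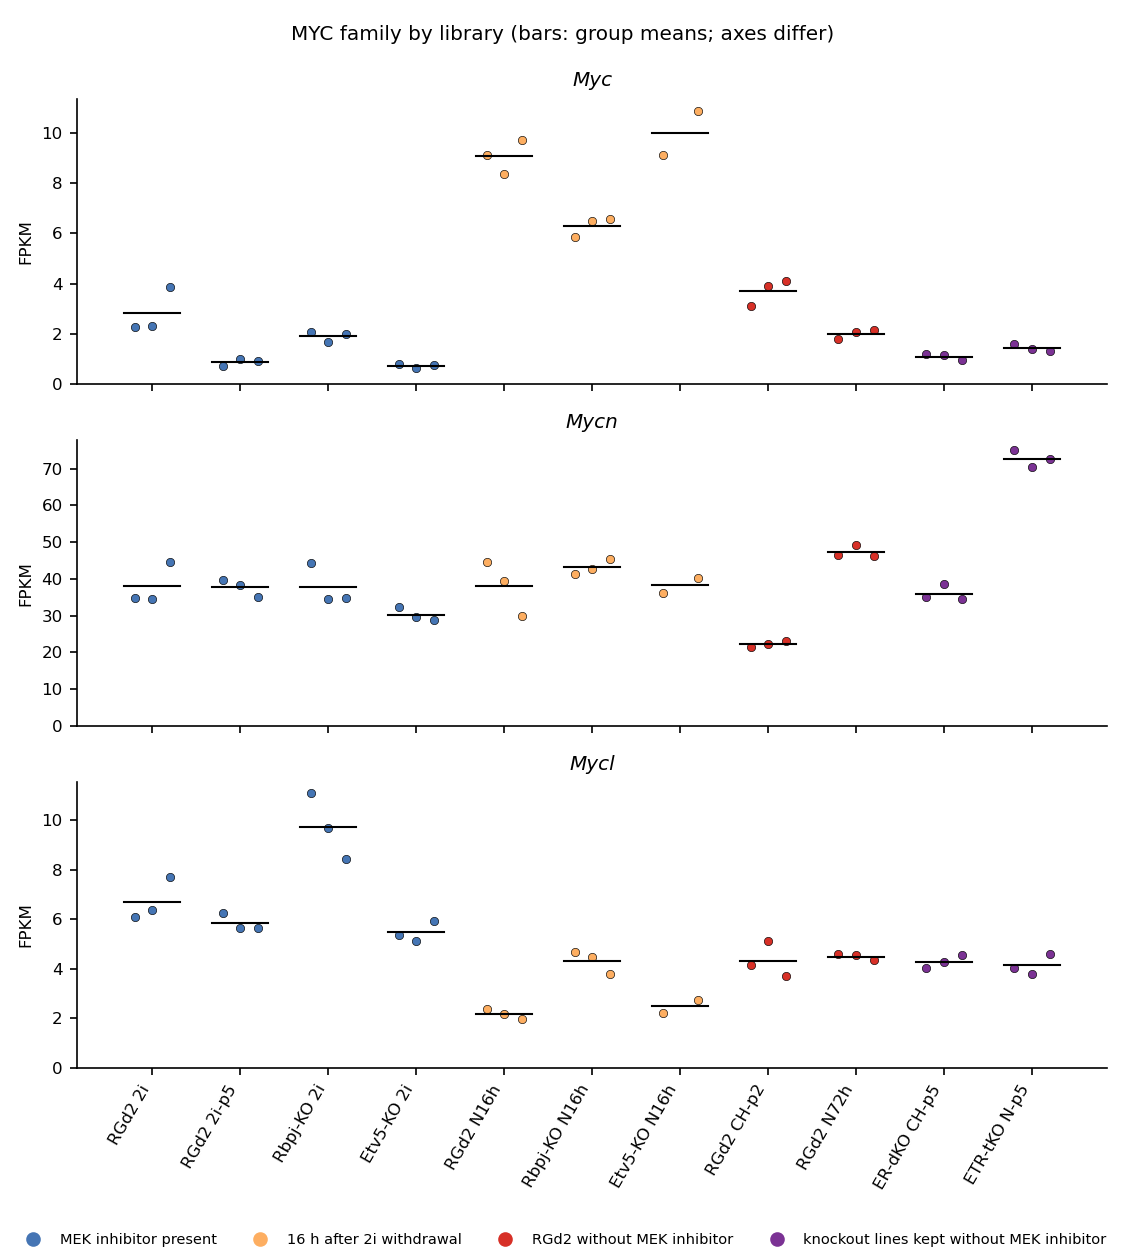
FPKM of *Myc*, *Mycn* and *Mycl* in each of the 32 libraries, on linear axes from 0 that differ between panels, with 1 point per library and a bar at each group mean. *Myc* stands at 5.86 to 10.8 in the orange N16h libraries and at 4.12 or less elsewhere, and *Mycn* is lowest in CH-p2 and highest in ETR-tKO N-p5.

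The comparisons follow by question. The first is what 16 h of inhibitor withdrawal does to these genes. In RGd2, 2 of the 10 were called higher and 1 lower, where 8.61% of the genes that could be called were higher and 37.3% lower. Here and below such shares cover only genes at the FPKM minimum in either group. Members are counted out of all 10, including those below that level. In this comparison *Egr1*, *Fos*, *Fosl1* and *Jun* were below it in both groups and could not be called. *Myc* rose by 1.55 ± 0.16 (adjusted p = 1.19e-10), *Junb* by 0.87 ± 0.30 (adjusted p = 0.0192), and *Mycl* fell by 1.82 (SE 0.14, adjusted p = 3.41e-14). *Egr1* at 2.02 ± 0.61 (adjusted p = 0.00748) and *Fos* at 2.46 ± 0.64 (adjusted p = 0.00214) passed the test but not the FPKM minimum, with counts in 2i as given above. *Junb* rested on single libraries: it was 0.67 without RGd2 2i replicate 31 (adjusted p = 0.159), 0.73 without replicate 32 (0.12) and 0.60 without RGd2 N16h replicate 22 (0.148).

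In *Rbpj*-KO cells 1 gene was called higher and 1 lower, with 11.6% and 16.2% of genes called. They were *Myc*, at 1.67 ± 0.16 (adjusted p = 5.16e-11), and *Mycl*, which fell by 1.22 (SE 0.13, adjusted p = 1.15e-09). *Egr1* was at 0.84 ± 0.51 (adjusted p = 0.269) and *Ier3* at 0.75 ± 0.31 (adjusted p = 0.076). With clonal line as a block, *Ier3* passed at 0.80 (adjusted p = 0.0402), and under TMM at 0.75 (0.043).

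In *Etv5*-KO cells 4 genes were called higher and 1 lower, with 31.2% and 9.45% of genes called. *Myc* rose by 3.90 ± 0.18 (adjusted p = 9.42e-21), *Junb* by 2.38 ± 0.29 (9.67e-09), *Ier2* by 1.05 ± 0.12 (4.55e-09) and *Mycn* by 0.48 ± 0.14 (0.00544), and *Mycl* fell by 0.99 (SE 0.15, adjusted p = 1.21e-06). *Egr1* was 4.48 ± 0.44 higher (adjusted p = 6.2e-11) with a mean of 0.494 FPKM, and *Jun* was 0.86 ± 0.35 higher (adjusted p = 0.0488) with 0.576 FPKM, so both passed the test below the FPKM minimum. *Mycn* was 0.33 without *Etv5*-KO N16h replicate 18 (adjusted p = 0.188), where the 1 library left is assumed to vary like the rest, and 0.24 under TMM scaling (adjusted p = 0.103).

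Whether the response differed between genotypes was tested as an interaction. For *Rbpj*-KO against RGd2, 0 of the 10 genes were called by edgeR (3.77% of genes were called higher and 0.238% lower), 2 had an unadjusted p under 0.05, *Fos* and *Mycl*, and DESeq2 called 1, *Mycl*. *Mycl* was 0.60 ± 0.19 (adjusted p = 0.0735), and it passed without RGd2 2i replicate 33 (0.61, adjusted p = 0.0363), replicate 22 of RGd2 N16h (0.69, 0.0484) or replicate 28 of *Rbpj*-KO 2i (0.73, 0.0237). For *Etv5*-KO against RGd2, 5 genes were called higher and 0 lower by edgeR, where 36.6% of genes were called higher and 0.530% lower. The difference was 2.35 ± 0.23 for *Myc* (adjusted p = 7.68e-10), 1.22 ± 0.17 for *Ier2* (7.53e-07), 1.5 ± 0.42 for *Junb* (0.00739), 0.83 ± 0.20 for *Mycl* (0.0019) and 0.68 ± 0.19 for *Mycn* (0.00674).

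This contrast is the one most affected by the scaling, since the median over all tested genes was 0.47 with spike-ins and 0.02 with TMM. Under TMM, *Myc* stood at 1.88 and *Ier2* at 0.77 and both were called, while *Junb* (1.03, adjusted p = 0.149), *Mycl* (0.39, 0.208) and *Mycn* (0.25, 0.358) were not. Without *Etv5*-KO N16h replicate 18, *Mycn* was 0.53 (adjusted p = 0.0972) and *Mycl* 0.61 (0.0708).

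For *Myc* most of the interaction lay in the 2i samples. *Etv5*-KO was below RGd2 in 2i, with a log2 value of -2.0 ± 0.17 (adjusted p = 8.83e-12), and at N16h the difference was 0.35 ± 0.16 (adjusted p = 0.104). For *Egr1* and *Junb* it lay at N16h, where *Etv5*-KO was above RGd2 by 2.49 ± 0.35 (adjusted p = 6.22e-07, FPKM below 1) and 1.13 ± 0.27 (adjusted p = 0.00139), and in 2i the differences were 0.02 ± 0.82 and -0.38 ± 0.32. In 2i, 4 of the 10 genes were called lower in *Etv5*-KO and 0 higher (27.8% and 6.10% of genes), the others being *Ier2* (-0.54 ± 0.11), *Mycn* (-0.46 ± 0.13) and *Mycl* (-0.44 ± 0.13). *Mycl* was -0.37 without RGd2 2i replicate 31 (adjusted p = 0.0634), and under TMM *Mycn* (-0.27, 0.054) and *Mycl* (-0.22, 0.18) did not pass. At N16h 3 were called higher and 0 lower (29.2% and 3.24%), with *Ier2* at 0.67 ± 0.12 (adjusted p = 4.93e-05) and *Mycl* at 0.40 ± 0.15 (0.0464). *Mycl* did not pass without RGd2 N16h replicate 23 (0.40, adjusted p = 0.0984), replicate 24 (0.32, 0.179) or *Etv5*-KO N16h replicate 18 (0.17, 0.668), nor under TMM (0.16, 0.454).

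The calls between *Rbpj*-KO and RGd2 were all in MYC family genes, but most early genes could not be called. *Egr1*, *Fos*, *Fosl1* and *Jun* were below the FPKM minimum in both genotypes at both times, and *Junb* was below it in 2i. In 2i 1 gene was called higher and 1 lower (5.24% and 6.11% of genes), *Mycl* as given above and *Myc* at -0.53 ± 0.17 (adjusted p = 0.0321). At N16h it was again 1 higher and 1 lower (18.8% and 3.41%), *Mycl* and *Myc* (-0.41 ± 0.15, adjusted p = 0.0432). The *Myc* call in 2i was lost without RGd2 2i replicate 31 (-0.53, adjusted p = 0.0696) or 33 (-0.43, 0.0804), or without *Rbpj*-KO 2i replicate 29 (-0.41, 0.215) or 30 (-0.58, 0.0634), and TMM gave -0.47 (0.05). In 2i *Mycl* did not pass without RGd2 2i replicate 32 (0.44, 0.0593) or *Rbpj*-KO 2i replicate 28 (0.37, 0.093), and *Ier2* passed without RGd2 2i replicate 32 (-0.41, 0.0175). At N16h the *Myc* call was lost without any 1 of the 6 libraries, RGd2 replicates 22, 23 and 24 and *Rbpj*-KO replicates 19, 20 and 21, at -0.38, -0.47, -0.38, -0.34, -0.42 and -0.48 with adjusted p of 0.0532 to 0.179, and *Mycn* passed without RGd2 replicate 22 (0.45, 0.019).

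**Figure D3:**
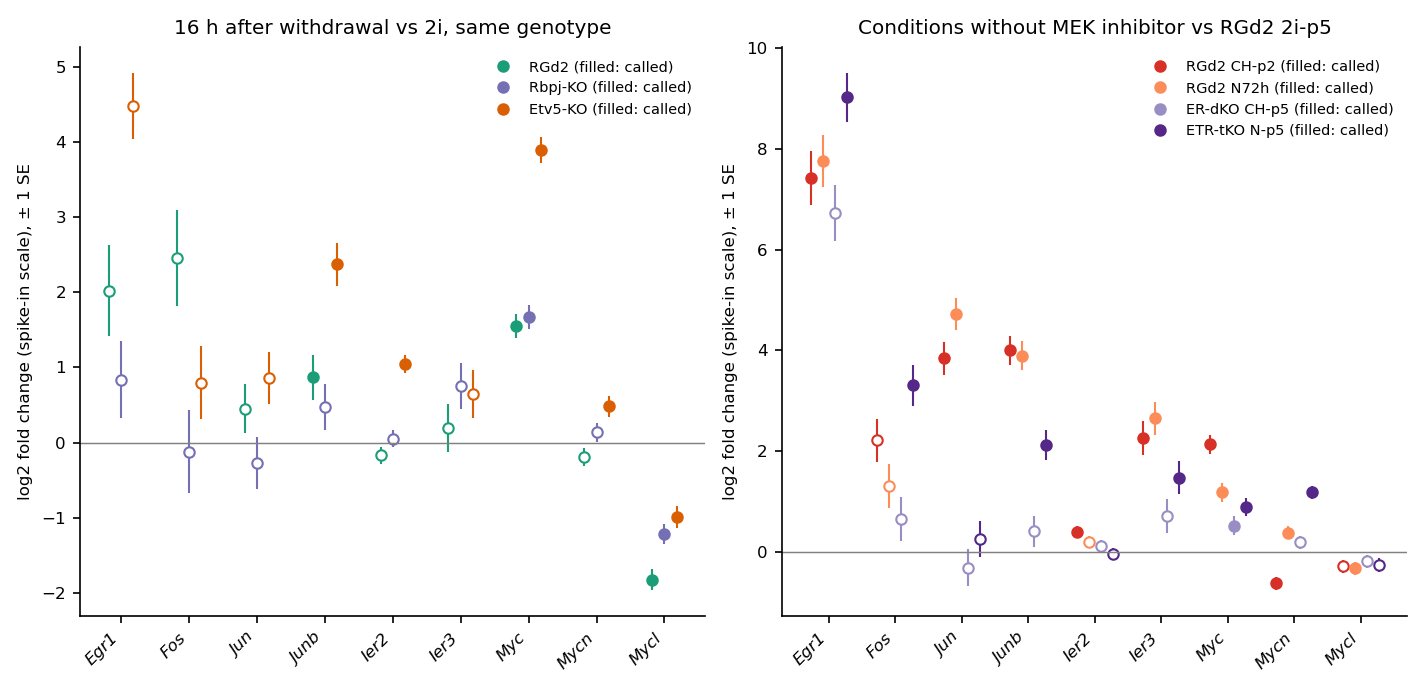
Log2 fold change with 1 SE for 9 of the 10 genes (*Fosl1* is left out for its low counts), at left for 16 h withdrawal within each genotype and at right for the conditions without MEK inhibitor against RGd2 2i-p5. Filled points are called. At left *Myc* is up and *Mycl* down in all 3 genotypes, and at right *Jun* stands apart between RGd2 (3.84 and 4.73) and the mutants (-0.32 and 0.26). The 4 comparisons at right share the 2i-p5 libraries.

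The second question is how RGd2 cells kept without MEK inhibitor differ from those in 2i. In CH-p2 against 2i-p5, 6 of the 10 genes were called higher and 1 lower (28.6% and 13.5% of genes): *Egr1*, *Jun*, *Junb*, *Ier2*, *Ier3* and *Myc* rose and *Mycn* fell. Under TMM *Ier2* was lost and *Mycl* was called lower (-0.47, adjusted p = 0.00295), and *Mycl* was also called without CH-p2 replicate 5 (-0.41, 0.0372) and against RGd2 2i (-0.79, 7.01e-06). In N72h against 2i-p5, 6 were called higher and 1 lower (34.2% and 22.9%): *Egr1*, *Jun*, *Junb*, *Ier3*, *Myc* and *Mycn* rose and *Mycl* fell. *Mycn* (0.38 ± 0.13, adjusted p = 0.0111) was 0.33 without 2i-p5 replicate 3 (0.0591) and 0.31 without N72h replicate 8 (0.0675). *Mycl* (-0.33 ± 0.13, adjusted p = 0.039) was lost without 2i-p5 replicate 1, 2 or 3 or N72h replicate 7 or 9, at -0.32, -0.32, -0.36, -0.31 and -0.30. *Mycn* was 0.23 under TMM (adjusted p = 0.0587) and 0.08 against RGd2 2i (0.606).

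In N72h against N16h of RGd2, 5 genes were called higher and 1 lower (31.3% and 29.6%), with the limit on the starting culture given above. *Egr1* was higher by 4.36 ± 0.31, *Jun* by 3.87 ± 0.28, *Junb* by 2.90 ± 0.25, *Ier3* by 1.78 ± 0.28 and *Mycl* by 1.0 ± 0.14. *Myc* was lower as given above. *Mycn* at 0.27 ± 0.12 (adjusted p = 0.0645) passed without RGd2 N16h replicate 22 (0.43, 0.00796) and under TMM (0.27, 0.0248). The 2i-p5 and 2i cultures of RGd2 differed in 3 genes, 0 higher and 3 lower in 2i-p5 (2.89% and 49.3% of genes). These were *Myc*, *Mycl* (-0.49 ± 0.13, adjusted p = 0.0036) and *Ier2* (-0.31 ± 0.12, 0.0286), of which *Ier2* turned to 0.03 under TMM and was lost without RGd2 2i replicate 31 (-0.24, adjusted p = 0.165) or 33 (-0.23, 0.104) or 2i-p5 replicate 1 (-0.27, 0.112) or 3 (-0.32, 0.0648). *Mycl* was -0.16 under TMM (adjusted p = 0.415), and *Mycn* was called lower without RGd2 2i replicate 32 (-0.37, 0.0344).

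The third question is how mutants that persist without MEK inhibitor compare with 2i and with RGd2 cells in the same medium. In ER-dKO CH-p5 against 2i-p5, 1 gene was called higher and 0 lower by edgeR (33.8% and 8.42% of genes), with 3 of the 10 at an unadjusted p under 0.05. The call was *Myc*, at 0.51 ± 0.19 (adjusted p = 0.0317), and it was lost without 2i-p5 replicate 1 (0.40, 0.145) or 3 (0.54, 0.0756) or ER-dKO replicate 10 (0.45, 0.0988) or 11 (0.49, 0.0727), and under TMM (0.32, 0.20). *Mycl*, at -0.19 ± 0.13, was called lower under TMM (-0.39, adjusted p = 0.0112) and against RGd2 2i (-0.69, 5.58e-05), so TMM gave 0 higher and 1 lower. Without replicate 12 *Myc* was 0.59 (adjusted p = 0.0271), *Egr1* 6.64 (1.33e-11) and *Jun* -0.21 (0.734). In ETR-tKO N-p5 against 2i-p5, 6 were called higher and 0 lower (37.6% and 9.52%): *Egr1*, *Fos*, *Junb*, *Ier3*, *Myc* and *Mycn*. Leaving out each of the 6 libraries in turn left 6 called. Under TMM *Ier2* (-0.28, adjusted p = 0.0292) and *Mycl* (-0.51, 0.00114) were called lower as well, and against RGd2 2i they stood at -0.35 (0.013) and -0.76 (1.15e-05).

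Against RGd2 in the same medium, ER-dKO had 1 gene called higher and 6 lower than CH-p2 (28.3% and 21.3% of genes). The same-medium contrasts, here and above, also differ in time in the medium. The mutants were at passage 5, CH-p2 at passage 2 and N72h at 72 h. Genotype and time cannot be told apart here. *Mycn* was higher, and *Jun*, *Junb* (-3.60 ± 0.25), *Myc* (-1.62 ± 0.16), *Ier3* (-1.55 ± 0.29), *Egr1* (-0.70 ± 0.25) and *Ier2* (-0.27 ± 0.11) were lower. *Egr1* (adjusted p = 0.02) did not pass without CH-p2 replicate 4 (-0.59, 0.0875) or ER-dKO replicate 10 (-0.68, 0.0559) or 11 (-0.64, 0.0729). *Ier2* (adjusted p = 0.046) did not pass without CH-p2 replicate 4 (-0.25, 0.109) or 5 (-0.25, 0.124) or ER-dKO replicate 11 (-0.19, 0.232) or 12 (-0.30, 0.0599), and *Fos* was called lower without CH-p2 replicate 6 (-1.89, 7.2e-05). Without ER-dKO replicate 12, 6 genes were called, with *Jun* at -4.05 (adjusted p = 2.68e-12), *Junb* at -3.87 (6.88e-14), *Egr1* at -0.79 (0.0254) and *Mycn* at 0.84 (6.67e-06). ETR-tKO had 3 genes called higher than N72h (*Egr1*, *Fos* and *Mycn*) and 3 lower (*Jun*, *Junb* and *Ier3*, the last at -1.18 ± 0.27), where 35.4% and 23.5% of genes were called. Under TMM *Ier2* (-0.33, adjusted p = 0.00568) and *Myc* (-0.40, 0.0349) were also called lower, making 5. So in ETR-tKO against N72h the early genes went both ways, with *Egr1* and *Fos* above and both JUN genes below. In ER-dKO against CH-p2 every early gene that was called was lower. Several marker lists also differed between these cells: the summed FPKM of 5 formative genes was 506 to 521 at N72h and 59.1 to 88.0 in ETR-tKO, and that of 5 mesendoderm genes was 68.6 to 72.3 in CH-p2 and 4.87 to 5.91 in ER-dKO. The summed FPKM of 6 fibroblast markers was 6.03 to 6.78 at N72h and at most 1.81 in any other condition. Of the mesendoderm list 1 gene reached the FPKM minimum in ER-dKO or CH-p2, and of the fibroblast list 1 in ETR-tKO or N72h. The largest counts in a library were of *T* (3186) and *Thy1* (734), so these 2 sums do not stand for several markers. The part of these other cell states in the early gene values was not tested.

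Other genes of the pathway were taken from fixed lists. Feedback and other ERK-responsive genes (the Sprouty, SPRED, DUSP and ETV genes and *Phlda1*) were up at 16 h. At that time *Fos* was still low in every genotype, and *Egr1* in RGd2 and *Rbpj*-KO but not in *Etv5*-KO. In RGd2 at 16 h, 8 of the 11 were called higher and 0 lower (8.61% and 37.3% of genes). The median log2 change was 2.32 against -0.23 over all tested genes. *Spry4*, an inhibitor of RTK signaling, rose by 7.81 (adjusted p = 7.62e-28), from 0.0904 to 19.1 FPKM, *Etv4*, an ETS factor, by 4.48, and *Dusp4*, an ERK phosphatase, by 3.82. In *Rbpj*-KO 9 of the 11 were called higher (11.6% of genes). In *Etv5*-KO it was 11 of the 11 (31.2%), including the deleted *Etv5*. Already in 2i, 7 of the list were called lower in *Etv5*-KO than in RGd2 and 1 higher (27.8% and 6.10% of genes). Against 2i-p5 the numbers higher and lower were 9 and 0 in CH-p2 (28.6% and 13.5% of genes) and 8 and 0 in N72h (34.2% and 22.9%). In ER-dKO they were 8 and 2 (33.8% and 8.42%), and in ETR-tKO 7 and 1 (37.6% and 9.52%). The deleted *Etv5* was among those lower in both mutants.

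The other immediate early genes, 23 of 24 tested and 14 at the FPKM minimum in RGd2 2i or N16h, had 2 called higher and 4 lower at 16 h in RGd2. The shares were 8.61% and 37.3% of genes that could be called, and the list median was -0.02 against -0.23 over all tested genes. *Arc* (0.94) and *Mcl1* (0.60), a survival factor of the BCL2 family, rose, and *Nr4a1* (-1.46), an orphan nuclear receptor, *Btg2* (-1.04), an antiproliferative gene, and *Ier5l* (-0.90) were among those that fell. In *Rbpj*-KO 4 of 15 at the FPKM minimum were higher and 1 lower (11.6% and 16.2% of genes). In *Etv5*-KO it was 9 and 1 of 14 (31.2% and 9.45%), with *Arc* rising by 4.71. In CH-p2 11 of 17 were higher and 0 lower (28.6% and 13.5% of genes), and in N72h 14 and 1 of 17 (34.2% and 22.9%). The medians were 0.94 and 1.52 against 0.17 and 0.12 over all tested genes. *Atf3*, a stress-responsive bZIP factor, was 5.57 and 4.47 above 2i-p5 in these conditions, and *Ccn1*, a matricellular protein gene, 3.70 and 4.61. In ER-dKO 3 of 15 were higher and 8 lower (33.8% and 8.42% of genes), with *Ier5* (-2.32), *Ccn1* (-1.46) and *Jund* (-1.37) lowest. The median was -0.30, beside 0.20 over all tested genes. In ETR-tKO it was 6 and 2 of 15 (37.6% and 9.52% of genes), with a median of 0.28 beside 0.27 over all tested genes. The ETR-tKO counts were near these shares and are not a result about the list. The heat shock list, chosen as markers of handling stress, summed to 1032 to 1115 FPKM in CH-p2 and 795 to 809 in N72h, below the 1442 to 1466 of 2i-p5. Its largest counts were of *Hsp90aa1*, up to 315881 in a library, against up to 118 for *Hspa1a* and 216 for *Hspa1b*. Against 2i-p5, 0 were called higher and 2 lower in CH-p2 (28.6% and 13.5% of genes). In N72h it was 2 and 3 (34.2% and 22.9%), and handling stress was not tested.

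**Figure D4:**
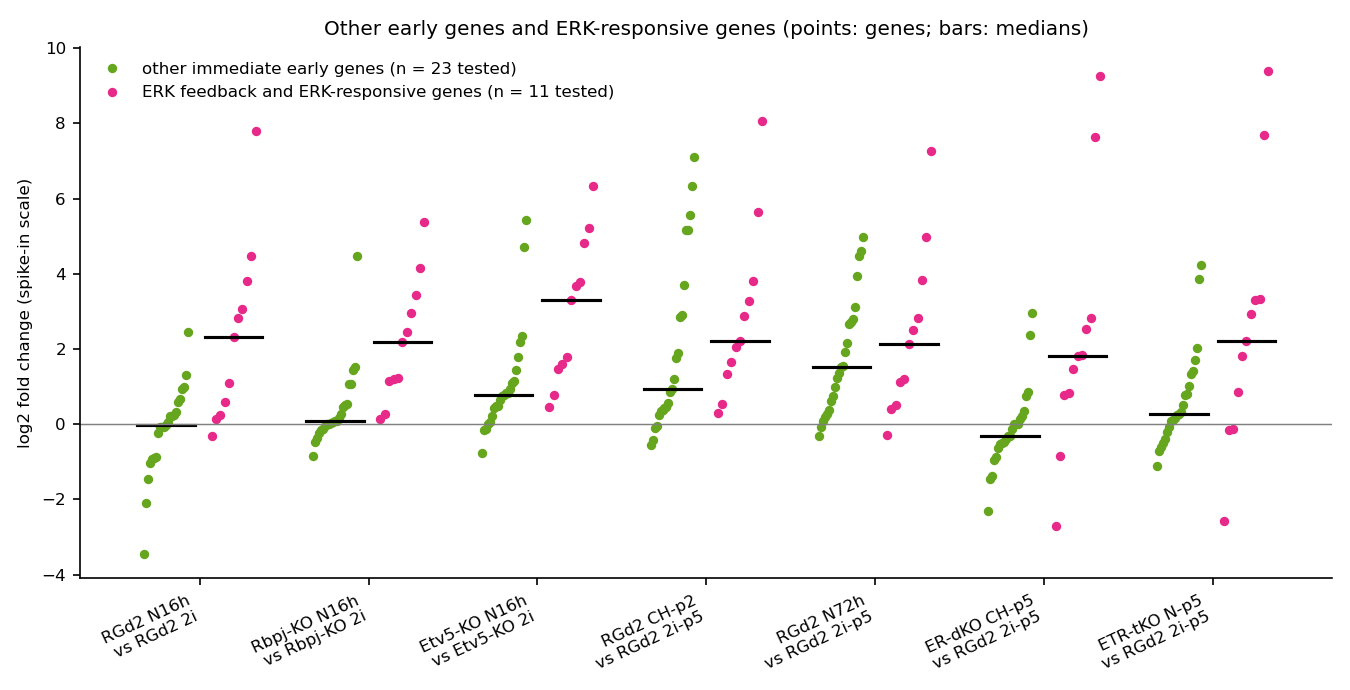
Log2 fold change of the 23 tested other immediate early genes (green) and the 11 ERK feedback and ERK-responsive genes (magenta) in 7 comparisons, with 1 point per gene and a bar at the median. The magenta median is 2.32 at 16 h in RGd2, where the green one is -0.02, and the green median is highest at N72h, 1.52. The last 4 comparisons share the 2i-p5 libraries.

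Of the components of the ERK cascade, in RGd2 at 16 h 1 of 15 was called higher and 4 lower, with *Braf* at 1.07 (adjusted p = 5.69e-09) and *Elk1* at -0.79 (1.99e-06). These counts, and those of the MYC targets and partners in RGd2 that follow, stand beside 8.61% of genes called higher and 37.3% lower. They are not a result about the lists. *Braf* was also among the genes called higher in each of the other 6 comparisons, at 0.63 in *Rbpj*-KO and 1.01 in *Etv5*-KO at 16 h and at 1.26, 1.24, 0.85 and 0.81 in CH-p2, N72h, ER-dKO and ETR-tKO. Textbook MYC targets at 16 h in RGd2 had 2 of 20 called higher, 5 lower and a median of -0.04 against -0.23 over all tested genes. *Ccnd2*, encoding cyclin D2 (2.61), and *Odc1*, the ornithine decarboxylase of polyamine synthesis (0.32), rose, and *Cad*, of pyrimidine synthesis (-0.78), *Tert* (-0.53) and *Fbl* (-0.39) fell. In *Rbpj*-KO 2 were higher and 1 lower (11.6% and 16.2% of genes). In *Etv5*-KO it was 10 and 1 (31.2% and 9.45%), with a median of 0.36 beside 0.24 over all tested genes. Of the MYC partners and antagonists, 11 of 12 were tested and 8 reached the FPKM minimum in RGd2 2i or N16h. In RGd2 at 16 h 3 were lower, *Mxi1* (-0.74), *Mnt* (-0.59) and *Mlx* (-0.58), and none was higher. In ETR-tKO 5 of the 20 targets were higher and 2 lower against 2i-p5, beside 37.6% and 9.52% of genes. The lower were *Ldha* (-1.49) and *Fbl* (-0.50), and any link of the targets to *Mycn* was not tested.

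Across the 11 condition means, the profile most like that of *Egr1* among 13359 genes was *Rgs12* (Pearson r 0.96 on log2 normalized count plus 1), followed by *Micall1* (0.95) and *L1cam* (0.95). For *Fos* they were *Rgs12* (0.93), *Slc46a3* (0.90) and *Rab6b* (0.89), for *Myc* *Pum3* (0.98), *Diexf* (0.97) and *Wdr43* (0.96), and for *Mycn* *Srgap2* (0.91), *Tek* (0.90) and 4833420G17Rik (0.89). Within the 10 genes the closest pairs were *Fos* with *Fosl1* (0.93), *Junb* with *Ier3* (0.92) and *Jun* with *Junb* (0.89), and *Egr1* with *Jun* gave 0.50. These describe 11 points that share libraries and scaling.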

How the data were processed

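RNA-seq libraries of RGd2 ESCs and their knockout derivatives were analyzed. The authors depleted ribosomal RNA, made strand-specific libraries, used Trim Galore for trimming and TopHat2 for alignment (GRCm38/mm10 plus ERCC, Gencode models), and deposited raw counts from featureCounts per gene and spike-in. Tool versions are not given in the sources used here. FPKM and log2 values were computed here from the deposited counts and gene lengths. Conditions came from the labels, which give 2 libraries to *Etv5*-KO N16h, whereas the study's methods give 2 to RGd2 N16h. Gene IDs without a symbol numbered 193 and held 0.0259% of counts.

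Median-of-ratios size factors came from the 52 ERCC RNAs that no library lacked. edgeR 4.0.16 (R 4.3.3) fitted all 32 libraries by quasi-likelihood. Its p-values were two-sided and adjusted by Benjamini-Hochberg over 19037 genes kept by filterByExpr. Calls needed an adjusted p under 0.05 and mean FPKM of 1 in either group, so background percentages count genes at that level. Intervals for few counts were exact binomial, in scipy. The fit was tested on simulated data. Alternatives were TMM, median-of-ratios scaling on genes, DESeq2 1.42.0, no filter, no FPKM minimum, fewer libraries, each library left out, another 2i reference and clonal line as a block. The last pairs 2i and N16h libraries by the clone in the labels, and same-clone deviations correlated at 0.0044 to 0.18. Named genes are the 10 members, up to 3 called genes per list and direction, and the 3 most alike. Members and lists were chosen with earlier results of these data known.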

Additional observations from a re-analysis of the deposited data

Results flagged for a closer look

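For 6 of the 10 genes the change from 2i to N16h differed between *Etv5*-KO and RGd2 by the interaction test (edgeR, adjusted p under 0.05), where 36.6% of all genes that could be called were called higher. With the FPKM minimum, which that share also uses, 5 of them were called, and under TMM 2, *Myc* and *Ier2*. The *Etv5*-KO minus RGd2 difference was 2.46 for *Egr1* (log2, adjusted p = 0.0493, FPKM below 1 in all 4 groups), 1.5 for *Junb*, 1.22 for *Ier2*, 2.35 for *Myc*, 0.68 for *Mycn* and 0.83 for *Mycl*. For *Egr1* the adjusted p ran from 0.0111 to 0.23 over the alternatives. The same contrast had a median of 0.47 over all tested genes, so *Mycn* stood 0.21 and *Mycl* 0.37 above that median. No group of 4 or more libraries exists, so single libraries were not tested as outliers.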

How the results depend on the processing

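The number of the 10 genes called moved by over 1.5 times as follows. Without the FPKM minimum it was 5 in RGd2 N16h against 2i and 2 in ER-dKO against 2i-p5. With RGd2 2i as reference ER-dKO had 2. TMM gave 1 for 2i-p5 against 2i, 1 for *Rbpj*-KO and 2 for *Etv5*-KO against RGd2 in 2i, and 2 for the *Etv5*-KO response. Median-of-ratios scaling on genes gave 1 for 2i-p5 against 2i and 2 for the *Etv5*-KO response. Without the low-count filter ER-dKO had 0, and *Rbpj*-KO had 1 in 2i and 1 at N16h. With only the libraries compared in the fit, ER-dKO had 2, 2i-p5 against 2i had 1, and in 2i *Rbpj*-KO had 0 and *Etv5*-KO 2. DESeq2 gave 1 for the *Rbpj*-KO response. *Myc* turned direction against RGd2 2i, at -0.65 for N72h, -1.32 for ER-dKO and -0.95 for ETR-tKO. *Ier2* in 2i-p5 against 2i turned to 0.0252 under TMM and 0.0179 with scaling on genes. The cause was not tested. TMM moved the median of all genes by -0.45 to 0.35 relative to spike-ins. With clonal line as a replicate block, in 17 libraries, no call was lost, and *Ier3* was added in *Rbpj*-KO (0.80) and *Etv5*-KO (0.85, adjusted p = 0.0468) at 16 h.

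Leaving out 1 library at a time gave 2 to 3 called genes in RGd2 N16h against 2i, 2 in *Rbpj*-KO and 4 to 5 in *Etv5*-KO, 7 to 8 in CH-p2, 5 to 6 in N72h, 0 to 1 in ER-dKO and 6 in ETR-tKO against 2i-p5, and 6 to 7 in N72h against N16h. It gave 2 to 4 in 2i-p5 against 2i, 1 to 2 in *Rbpj*-KO against RGd2 at each time, 3 to 4 in *Etv5*-KO in 2i and 2 to 3 at N16h, 0 to 1 for the *Rbpj*-KO response, 3 to 5 for the *Etv5*-KO response, 5 to 8 in ER-dKO against CH-p2 and 6 in ETR-tKO against N72h. Depth limits *Egr1*, *Fos* and *Fosl1* in 2i, where a count of 0 in RGd2 2i replicate 33 allows up to 12.1 normalized counts.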

Other observations

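Within the JUN pair, *Jun* made up 56.5% ± 2.3 (SD, n = 3) of summed *Jun* and *Junb* FPKM at N72h, 39.6% ± 2.5 (n = 3) in CH-p2, 15.6% ± 5.4 (n = 3) in ETR-tKO and 22.0% ± 2.2 (n = 2) in *Etv5*-KO N16h. Shares as low were also found in single libraries elsewhere, from 17.1% in *Rbpj*-KO 2i, 19.8% in ER-dKO, 23.9% in *Rbpj*-KO N16h and 26.9% in RGd2 N16h, so low shares were not particular to those groups. No test was made.

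*Mycl* was highest of all conditions in *Rbpj*-KO 2i, at 11.1, 9.67 and 8.42 FPKM, and made up 19.7% ± 1.3 (SD, n = 3) of MYC family FPKM there, against 14.2% ± 0.49 (n = 3) in RGd2 2i. The 2 ranges did not overlap.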
